A study of Homo sapiens with 6 samples.

Results

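The genes described here are 10 genes of the enteroendocrine lineage, the hormone-secreting cells of the gut, measured in the established cell line HT29, which comes from a human colorectal adenocarcinoma. They are CHGA, CHGB, NEUROD1, NEUROG3, INSM1, PYY, GCG, SCG2, SCG5 and SYP. For 9 of them the platform annotation gave a probe set with exactly that symbol, 1 each, out of 18417 genes in all, and NEUROD1 is not analysed here. Cells with a control construct gave 3 arrays and cells with a construct for expression of laminin α1 gave another 3; this chain is a part of laminin, the cross-shaped protein of basement membranes. All 6 cultures were HT29, were grown for 7 days and, per the series' design text, the 3 arrays of a group came from independent passages. How many clones stand behind each group, and what sequence the construct carries, is not given in the sources used here. P values therefore measure the spread between passages.

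Enteroendocrine cells arise in the intestinal crypt from secretory progenitors. ATOH1 sets the secretory fate against Notch signalling, and NEUROG3, a basic helix-loop-helix transcription factor, then commits a progenitor to the endocrine branch. Later factors such as NEUROD1, INSM1, PAX4, PAX6 and RFX6 direct the differentiated subtypes. Mature cells store peptide hormones in dense-core granules, whose matrix is built from chromogranins and secretogranins, and release them by regulated exocytosis.

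The deposited values are log2 expression values after RMA, which equalises the distributions of the arrays. Genes whose mean over the 6 arrays lay above the 25th percentile of all genes, log2 5.50, were tested, 13812 in all, with limma and Benjamini-Hochberg adjustment at a threshold of 0.05. Differences are arrays labelled laminin α1 minus control. LAMA1, the human gene of the laminin α1 chain, had a difference of 0.09 that did not pass (limma adjusted p = 0.535), with 5.60 to 5.71 in control and 5.71 to 5.79 in laminin α1 arrays, so it does not check the labels. All 11 colon epithelial markers on the list passed the level filter, and EPCAM, KRT8 and KRT18 had control means of 12.1, 12.9 and 12.8. CDH17 passed that filter through its control arrays, with means of 6.58 in control and 4.93 in laminin α1 arrays. CDH17, KRT20 and LGALS4 of that list fell and the other 8 did not pass, beside 2.59% of all genes tested that passed downward and 2.69% upward.

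NEUROG3 was 2.34-fold lower in the arrays labelled laminin α1 than in control arrays, and it was the only member past the threshold among the 5 that could be tested. INSM1, PYY, SYP and CHGB did not pass. CHGA, SCG5, SCG2 and GCG lay below the level filter on every array and were followed in a limma fit without that filter, where none passed, beside 4.21% of all 18417 genes, 2.07% downward and 2.13% upward. The share past the threshold over all genes tested was 5.29% in either direction and 2.59% downward. The median difference of the 5 tested members was -0.07, beside -0.01 over all genes tested, and without NEUROG3 the other 4 had a median of -0.05.

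**Figure D1:**
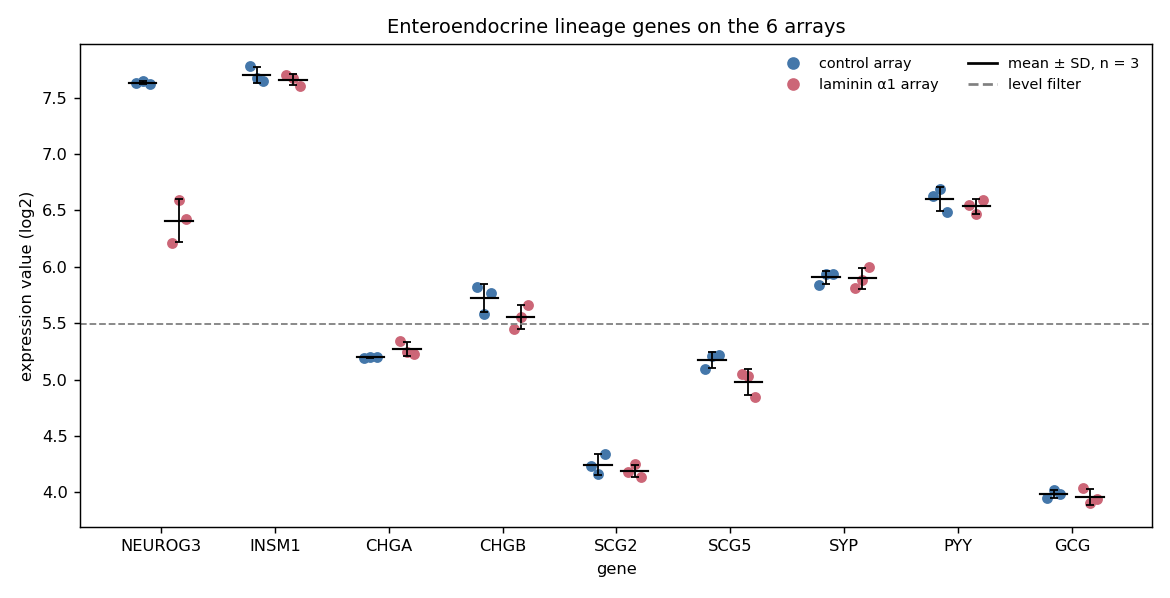
Each point is the log2 expression value of 1 array for the 9 measured enteroendocrine lineage genes, in blue for control and red for laminin α1; bars give the mean ± SD of 3 arrays and the dashed line the level filter of 5.50. NEUROG3 has a difference of -1.22, while CHGA, SCG2, SCG5 and GCG lie below the line on all 6 arrays.

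On the log2 scale NEUROG3 read 7.62, 7.64 and 7.62 with the control construct, against 6.21, 6.59 and 6.42 with that for laminin α1. The control arrays lay within a narrow band, with an SD of 0.01, and the laminin α1 arrays were more spread, with an SD of 0.19, and all lower. The difference was -1.22 (SE 0.09, 95% interval -1.43 to -1.02, n = 3 per group), with a limma adjusted p of 3.63e-05. The groups did not overlap, as was the case for 21.6% of all genes tested, 11.5% with laminin α1 lower and 10.1% with laminin α1 higher. An exact two-sided permutation test gave 0.1, the smallest p that 3 against 3 arrays allow. By size, the fall of NEUROG3 ranked 29th among the 13812 genes. In bulk RNA, fewer cells with NEUROG3 and less NEUROG3 RNA per cell cannot be told apart. Its mean level lay at the 49.4th percentile of genes, so a filter at the 50th percentile leaves it untested. With any 1 array left out the difference stayed between -1.32 and -1.12, with adjusted p values of 5.03e-05 to 5.37e-04.

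The start-site window of NEUROG3 is shown because this was the member that fell, and that of CHGA because it did not pass and holds a match to the cAMP response element known from chromogranin genes. Both are from RefSeq, build GRCh38.p14, with 250 bases before and 50 after an annotated start, written 5′ to 3′ on the gene's strand. NEUROG3 is at chr10:69573373-69573672 on the minus strand and CHGA at chr14:92922900-92923199 on the plus strand. Capitals mark matches to the E-box CANNTG, the letters that basic helix-loop-helix factors bind, or to the cAMP response element form TGACGTNA.
NEUROG3: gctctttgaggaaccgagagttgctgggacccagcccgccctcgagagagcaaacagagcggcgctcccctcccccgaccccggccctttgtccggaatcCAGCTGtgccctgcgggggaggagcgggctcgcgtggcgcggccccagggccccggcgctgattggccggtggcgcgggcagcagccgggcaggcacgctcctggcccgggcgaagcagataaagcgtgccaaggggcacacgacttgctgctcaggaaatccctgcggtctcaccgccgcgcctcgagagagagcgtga
CHGA: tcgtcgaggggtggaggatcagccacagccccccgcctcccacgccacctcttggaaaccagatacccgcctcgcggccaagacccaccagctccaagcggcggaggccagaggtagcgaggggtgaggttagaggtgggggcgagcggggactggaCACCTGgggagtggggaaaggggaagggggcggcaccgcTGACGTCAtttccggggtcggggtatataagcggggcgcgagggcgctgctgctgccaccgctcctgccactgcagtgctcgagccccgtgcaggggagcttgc

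The NEUROG3 window held 1 E-box, CAGCTG, beginning 150 bases upstream of the start. The CHGA window held 1 E-box, CACCTG, beginning 93 bases upstream, and 1 TGACGTCA, beginning 54 bases upstream. Windows were found for 7 of the 10 members. Searched on both strands, an E-box was in 5 of the 7 (CHGA, NEUROG3, PYY, GCG and SCG5), beside 68.7% of 35116 windows of the same length. Members were counted by gene and the share by window: PYY had 2 windows with 1 E-box in all. TGACGTNA was in CHGA alone of the 7, beside 3.01% of all windows. CAGATG, a form of the E-box known for NEUROG and NEUROD factors and counted also as CANNTG, was in GCG alone of the 7, beside 14.7% of all windows. A match describes letters in these windows and shows no binding.

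INSM1, a zinc-finger factor that acts after NEUROG3 in endocrine differentiation, had values of 7.78, 7.67 and 7.64 in control and 7.70, 7.67 and 7.60 in laminin α1 arrays. The groups overlapped. The difference of -0.04 (95% interval -0.19 to 0.11) did not pass (limma adjusted p = 0.824), and the interval leaves out a change of the size seen in NEUROG3.

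Among the granule proteins, CHGB, a chromogranin of dense-core granules, had values of 5.83, 5.58 and 5.77 in control and 5.44, 5.56 and 5.66 in laminin α1 arrays. The ranges overlapped, and the difference of -0.17 (95% interval -0.36 to 0.02) did not pass (limma adjusted p = 0.358). SYP, a synaptic vesicle membrane protein also used as an endocrine marker, had 5.84, 5.94 and 5.94 in control and 5.81, 5.88 and 5.99 in laminin α1 arrays. These overlapped almost fully, with a difference of -0.01 (95% interval -0.17 to 0.15; limma adjusted p = 0.970), and its sign turned when control replicate 2, control replicate 3 or laminin α1 replicate 1 was left out (0.0068, 0.0069 and 0.03) and with repeated quantile normalization (0.0041).

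CHGA, the chromogranin most used to stain enteroendocrine cells, had 5.19, 5.20 and 5.20 in control and 5.34, 5.25 and 5.22 in laminin α1 arrays. The groups did not overlap, as for 19.5% of all 18417 genes (9.21% with laminin α1 higher and 10.3% with laminin α1 lower), but the difference was 0.07 (95% interval -0.06 to 0.21) and did not pass in the limma fit without the filter (adjusted p = 0.676). SCG5, which encodes the chaperone of the prohormone convertase PCSK2, had 5.10, 5.21 and 5.22 in control and 5.05, 5.03 and 4.84 in laminin α1 arrays, all lower. The difference of -0.20 (95% interval -0.37 to -0.03) did not pass (limma adjusted p = 0.230), although it did with weights per array (-0.18, limma adjusted p = 0.0177). SCG2, a secretogranin and the precursor of secretoneurin, had 4.23, 4.16 and 4.34 in control and 4.18, 4.25 and 4.14 in laminin α1 arrays, which overlapped. Its difference was -0.06 (95% interval -0.21 to 0.10; limma adjusted p = 0.782), and 0.04 with weights per array. No measure of background signal was used here, so these low values do not show whether the 4 genes below the filter were expressed.

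Of the hormones, PYY, the peptide YY of colonic L cells, had 6.63, 6.69 and 6.49 in control and 6.54, 6.47 and 6.60 in laminin α1 arrays. The groups overlapped, and the difference of -0.07 (95% interval -0.23 to 0.10) did not pass (limma adjusted p = 0.734). With weights per array it was -0.19 and passed (limma adjusted p = 0.00796). In that fit control replicate 2 had a weight of 10.7 and laminin α1 replicate 2 of 3.03, while the other 4 arrays had 0.317 to 0.532, so it rests mainly on a pair of arrays. GCG, the proglucagon gene that yields GLP-1 in L cells, had 3.95, 4.02 and 3.99 in control and 4.04, 3.90 and 3.94 in laminin α1 arrays. These overlapped, with a difference of -0.03 (95% interval -0.17 to 0.11; limma adjusted p = 0.902 without the filter). Its sign turned to 0.00078 without laminin α1 replicate 2.

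The wider enteroendocrine programme was followed in 4 lists that hold 108 genes, of which 100 had a probe set and 61 were tested. Of the 61, 5 fell (NEUROG3, PAX4, FOXA2, DDC and CADPS2), 3 rose (ISL1, FFAR4 and ENO2) and 53 did not pass. Over all genes tested 2.59% passed downward and 2.69% upward. The median difference of the 61 was -0.05, against -0.01 over all genes tested. With weights per array 22 of the 61 passed, 14 lower and 8 higher, and with a filter at the 50th percentile 2 of the 15 left, both higher. The share of all genes that passed was not counted under these settings, so these counts cannot be set against it.

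**Figure D2:**
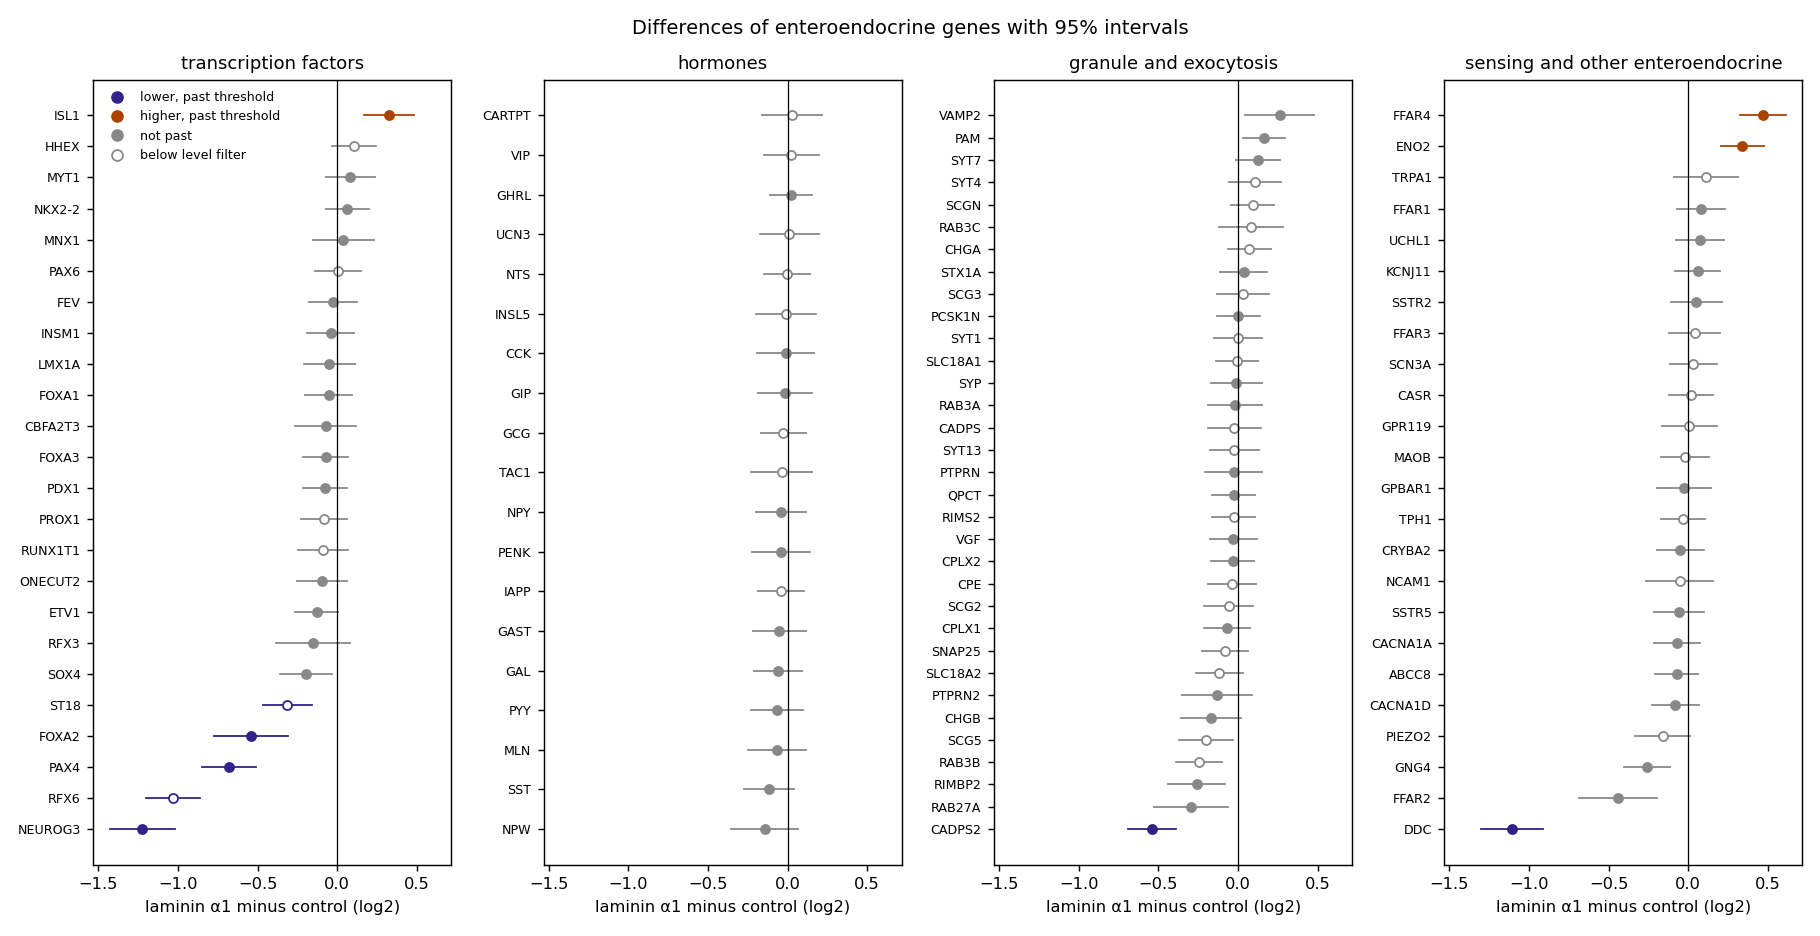
Points give the difference, laminin α1 minus control on the log2 scale, of each gene in the 4 enteroendocrine lists, with its 95% interval; filled points were tested, open points lay below the level filter and come from the fit without it. Of the 8 tested genes that passed, 4 are transcription factors, while all 19 hormones lie between -0.14 and 0.03.

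Transcription factors held 4 of the 8 changes, where 3 of 18 tested genes fell, 1 rose and 14 did not pass. The shares of all genes tested that passed were 2.59% downward and 2.69% upward. PAX4, a paired homeodomain factor that acts after NEUROG3 in endocrine subtype choice, fell 1.60-fold, from 6.87, 6.92 and 6.77 in control to 6.09, 6.14 and 6.29 in laminin α1 arrays. All 3 laminin α1 arrays were below all controls, as in 11.5% of all genes tested. The difference was -0.68 (SE 0.08, limma adjusted p = 4.85e-04). FOXA2, a forkhead factor of endoderm that also takes part in endocrine differentiation, went from 7.18, 7.13 and 6.92 to 6.33, 6.71 and 6.58. The groups did not overlap and the difference was -0.54 (SE 0.10, limma adjusted p = 0.0136). That call was lost without control replicate 1 (adjusted p = 0.0683), without control replicate 2 (adjusted p = 0.0684) and with all 33297 probe sets tested separately (adjusted p = 0.0700). The related FOXA1 and FOXA3 did not pass, with differences of -0.05 and -0.07.

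ISL1, a LIM homeodomain factor of hormone-producing cells, went the other way, from 7.16, 7.13 and 7.04 in control to 7.52, 7.43 and 7.35 in laminin α1 arrays. All laminin α1 arrays were higher, as in 10.1% of all genes tested, by 0.32 (SE 0.07, limma adjusted p = 0.0241). The call did not hold without any 1 of the 3 control arrays or without laminin α1 replicate 1 or 2 (adjusted p = 0.0553 to 0.102), nor with all probe sets tested separately (adjusted p = 0.0719).

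RFX6, a winged-helix factor that lies below NEUROG3 in endocrine development, was below the level filter and is named after its values were seen. It had 5.06, 4.90 and 4.89 in control and 3.93, 3.82 and 4.02 in laminin α1 arrays. The laminin α1 arrays were all lower, as in 10.3% of all 18417 genes. In the limma fit without the filter, in which 2.07% of all genes passed downward, the difference was -1.03 (SE 0.08, adjusted p = 4.23e-05). It passed with each array left out in turn (adjusted p at most 4.78e-04). ST18, a zinc-finger factor, was also below the filter and named after its values were seen, at 4.32 to 4.33 in control and 3.90 to 4.11 in laminin α1 arrays. Its difference was -0.31 (limma adjusted p = 0.0308), and the call was lost without any 1 of 5 arrays, laminin α1 replicate 3 being the exception (adjusted p = 0.0722 to 0.129). That call was also lost with all probe sets tested separately (adjusted p = 0.0847). For both genes the values are low on all arrays, so the size of the fold is uncertain. The remaining 4 factors below the filter, PAX6, PROX1, HHEX and RUNX1T1, had differences of 0.0060, -0.08, 0.10 and -0.09 and did not pass.

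**Figure D3:**
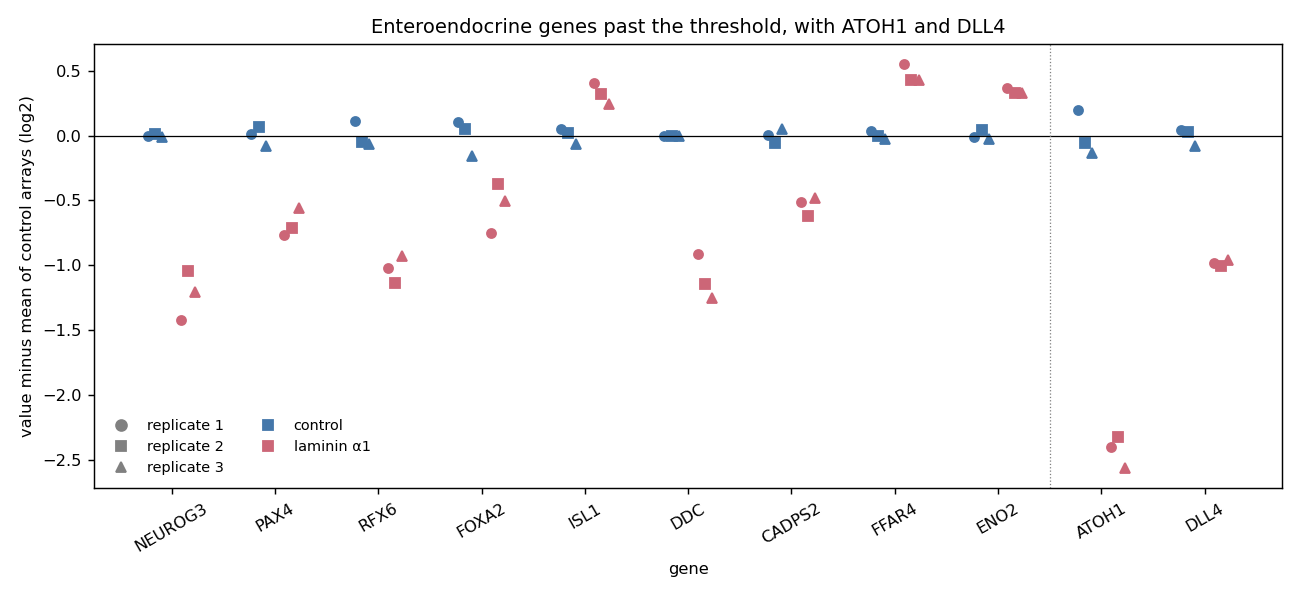
Each symbol is the log2 value of 1 array minus the mean of the 3 control arrays, for the enteroendocrine genes that passed the threshold (RFX6 without the level filter, ST18 not shown) and, right of the dotted line, for ATOH1 and DLL4. Circles, squares and triangles are replicates 1, 2 and 3; no red symbol falls among the blue symbols of its gene.

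None of the 11 tested hormone genes passed in the limma test, beside 5.29% of all genes tested, and none had an unadjusted p under 0.05. The smallest p values belonged to SST, the somatostatin of D cells, and NPW, neuropeptide W, with differences of -0.12 and -0.14 (limma adjusted p = 0.475 and 0.510). Both overlapped between the groups. The other 8 hormones with a probe set, GCG, NTS, INSL5, TAC1, IAPP, CARTPT, VIP and UCN3, lay below the level filter. No hormone of the 19 had groups that did not overlap, beside 19.5% of all 18417 genes.

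Granule and exocytosis genes included 1 gene of 17 tested that fell, 0 that rose and 16 that did not pass. This 5.88% is near the 5.29% of all genes tested that passed in either direction, of which 2.59% passed downward. CADPS2, a priming factor for dense-core vesicle release, had 7.30, 7.24 and 7.35 in control and 6.79, 6.67 and 6.81 in laminin α1 arrays. Its fall of 1.45-fold had a difference of -0.54 (SE 0.07, limma adjusted p = 0.00104), with no overlap of the groups. Of the genes that did not pass, 2 with negative and 2 with positive differences had an unadjusted p under 0.05. They were RIMBP2, a scaffold of release sites, at -0.26 and RAB27A, a GTPase of secretory granules, at -0.30 (limma adjusted p = 0.108 and 0.165). The others were PAM, the enzyme that amidates peptide hormones, at 0.16 and VAMP2, a vesicle fusion protein, at 0.26 (limma adjusted p = 0.187 and 0.193). The groups overlapped in VAMP2 and did not in the other 3 genes, nor in 21.6% of all genes tested.

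Of 15 tested genes for nutrient sensing and other enteroendocrine functions, 1 fell, 2 rose and 12 did not pass. Among all genes tested 2.59% passed downward and 2.69% upward. DDC, the decarboxylase that makes serotonin and dopamine from their amino acid precursors, went from 7.26, 7.26 and 7.27 to 6.35, 6.12 and 6.01, a fall of 2.15-fold. The control arrays were nearly identical and the laminin α1 arrays all lower, as in 11.5% of all genes tested. The difference was -1.11 (SE 0.09, limma adjusted p = 4.81e-05). TPH1, the enzyme that precedes DDC in serotonin synthesis of enterochromaffin cells, lay below the filter, at 3.95 to 4.04 in control and 3.91 to 4.01 in laminin α1 arrays.

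FFAR4, a receptor for long-chain fatty acids, rose from 9.68, 9.64 and 9.62 in control to 10.2, 10.1 and 10.1 in laminin α1 arrays, by 0.47 (SE 0.06, limma adjusted p = 0.00195). ENO2, the neuronal enolase used as a neuroendocrine marker, rose from 6.39, 6.44 and 6.38 to 6.77, 6.73 and 6.73, by 0.34 (SE 0.06, limma adjusted p = 0.00863). In both genes every laminin α1 array was above every control array, as in 10.1% of all genes tested. FFAR2, a receptor for short-chain fatty acids, and GNG4, a G protein subunit, are named after their values were seen and lay just outside the threshold with differences of -0.44 and -0.26 (limma adjusted p = 0.0505 for each). Both passed with weights per array (adjusted p = 1.85e-04 and 0.00273), a fit that rests mainly on a pair of arrays. FFAR2 passed the level filter through its control arrays, with means of 5.87 in control and 5.43 in laminin α1 arrays.

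Regulators of the secretory and endocrine fates were measured beside the members, and 2 of 16 fell, 0 rose and 14 did not pass. The shares over all genes tested were 2.59% downward and 2.69% upward. ATOH1 went from 9.76, 9.50 and 9.43 in control to 7.16, 7.23 and 6.99 in laminin α1 arrays, a difference of -2.43 (limma adjusted p = 7.94e-07), and DLL4, a Notch ligand, fell by 0.98 on the log2 scale (limma adjusted p = 1.34e-05). HES1, a Notch target that represses ATOH1 and NEUROG3, had a difference of -0.04 (95% interval -0.22 to 0.14, limma adjusted p = 0.870). HES6, a member of the HES family, was the nearest to the threshold among those that did not pass, at -0.25 (limma adjusted p = 0.0999). Its laminin α1 arrays were all lower, as in 11.5% of all genes tested. GFI1, a repressor that favours goblet and Paneth over endocrine fate, had -0.22 (limma adjusted p = 0.292), and REST, the repressor of neuronal and endocrine genes, -0.18 (limma adjusted p = 0.407).

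Most markers on the goblet cell list fell, as NEUROG3 did. Of 7 tested members 6 fell and 0 rose, beside 2.59% of all genes tested that passed downward and 2.69% upward. The mean log2 value over the 8 genes of the list was 7.57 to 7.61 in control and 6.28 to 6.38 in laminin α1 arrays. ZG16 was tested and did not pass (-0.06, limma adjusted p = 0.718). Only CLCA1 of that list lay below the level filter, and it did not pass in the limma fit without it (adjusted p = 0.132). The part of goblet-type cells in the fall of NEUROG3 was not tested. Lists for Paneth, tuft, enterocyte, neuronal and fibroblast cells had 0 of 18 tested genes past the threshold of the limma test, with 2 at an unadjusted p under 0.05, POU2F3 higher and SYN1 lower. Their mean log2 values had ranges of 6.23 to 6.27 against 6.21 to 6.29 for Paneth, 6.25 to 6.33 against 6.33 to 6.38 for tuft, 5.02 to 5.06 against 4.95 to 4.97 for enterocyte, 5.52 to 5.57 against 5.49 to 5.53 for neuronal and 5.45 to 5.55 against 5.48 to 5.54 for fibroblast genes, control first. The enterocyte ranges did not overlap. SI of that list, below the level filter and named after its values were seen, had a difference of -0.25. It passed in the limma fit without the filter (adjusted p = 0.0418), in which 2.07% of all genes passed downward.

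The genes whose pattern over the 6 arrays was nearest to that of NEUROG3 were MMP7, CD200, PLD1, IGFBP2 and AGR2. Likeness was the Euclidean distance between values taken relative to each gene's control mean, and it lay between 0.225 and 0.318 log2 units for these 5 of the tested genes. MMP7, a matrix metalloproteinase, was nearest, with a difference of -1.28, from a control mean of 11.2 to 9.95. AGR2, a protein disulfide isomerase of mucus-secreting cells, is also on the goblet list.

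Genes that neighbour each other can shift together in a cell line. The 5 measured genes on either side of each programme gene past the threshold, and of RFX6, were therefore read in RefSeq order. Neighbours of ST18 were not read. Around NEUROG3, on chromosome 10, 1 of 10 neighbours fell (HKDC1, by 0.68 on the log2 scale) and 0 rose, with a median of 0.0085. Around PAX4, RFX6, FOXA2, CADPS2 and ENO2, 0 of 10 neighbours passed in the limma fit without the filter. That fit was used for all neighbours, and in it 2.07% of all genes passed downward and 2.13% upward. Around DDC 1 of 10 fell (GRB10) and around FFAR4 1 of 10 fell (MYOF). Around ISL1, on chromosome 5, 4 of 10 rose (MRPS30, PARP8, ITGA2 and MOCS2), with a median of 0.23, and their part in the rise of ISL1 was not tested.

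**Figure D4:**
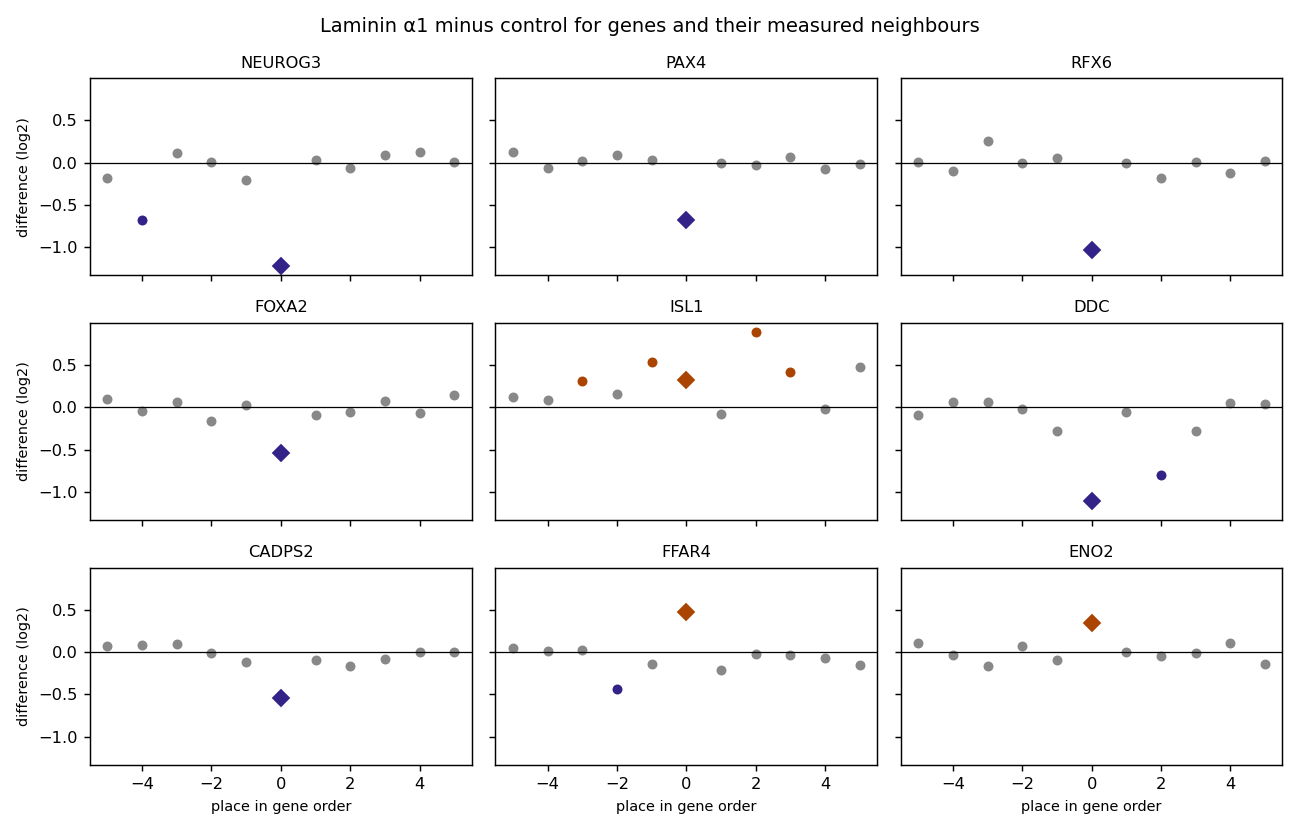
Diamonds give the difference, laminin α1 minus control on the log2 scale, of 9 enteroendocrine genes and circles that of their 5 measured neighbours on each side in gene order; blue fell and orange rose past the threshold in the fit without the level filter, and grey did not pass. Around ISL1 4 neighbours rose, with a median of 0.23 over the 10. Around PAX4 and RFX6 the medians are 0.0057 and 0.0035, with ranges of -0.08 to 0.13 and -0.18 to 0.25.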

How the data were processed

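Log2 expression values per probe set were deposited by the authors for 6 arrays, and the submitters' processing notes name RMA and Affymetrix Expression Console 1.1. That procedure subtracts background, gives the arrays the same quantiles and summarises probes, so a shift of all genes together cannot be seen. The values, 33297 probe sets, were used as deposited. Probe sets with exactly 1 symbol in the platform annotation (19460) were used, and the one with the highest mean per gene was kept. Groups were compared in R 4.3.3 with limma 3.58.1 (lmFit, eBayes) and no covariates, with 3 arrays per group, which limits the precision; the fit was tested on simulated data. Named genes are all members, each list gene past the threshold, the 2 smallest p values of a list with none, and the 5 nearest patterns; any other gene was named after its values were seen. The members and lists were chosen with earlier results of these data known. RefSeq annotation of GRCh38.p14 gave gene order, and 18391 of 18417 genes matched. Neighbours were read after the data had been examined. The alternatives were other level filters, the mean of probe sets, all probe sets separately, median centring, array weights, repeated quantile normalization, eBayes with trend and robust settings, a replicate block, a threshold of 0.01 and each array left out in turn.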

Additional observations from a re-analysis of the deposited data

How the results depend on the processing

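NEUROG3, PAX4, DDC, CADPS2, FFAR4, ENO2 and, without the level filter, RFX6 kept their direction and their call under each alternative that could be run on them. FOXA2, ISL1 and, without the level filter, ST18 did not pass at a threshold of 0.01, beside the losses given above. The count of members past the threshold was 1, and 1 with each array left out in turn; it was 0 with the filter at the 50th percentile, which removes NEUROG3, and 2 with array weights, which add PYY (-0.19). Array weights also brought SCG5 past the threshold (-0.18) and turned SCG2 (a difference of 0.043). SYP turned with repeated quantile normalization (0.0041) and without single arrays (-0.058 to 0.033), and GCG without single arrays (-0.066 to 0.00078); both lie near 0. Of the programme genes 8 passed, 6 to 10 with arrays left out, 2 with the filter at the 50th percentile, 22 with array weights and 13 with the replicate block. The share of all genes past the threshold was not counted under these alternatives. The main fit did not pair the arrays by replicate number, as no pairing is stated. Deviations from the group means correlated at 0.39, 0.02 and 0.53 for numbers 1, 2 and 3 over the tested genes. For 4 of 6 arrays, those numbered 1 and 3, the best correlation was with their own number. These values do not show that the arrays are unpaired. With the replicate block NEUROG3 had the same difference (-1.22), and FFAR2, GNG4, RIMBP2, RAB27A and VAMP2 passed in addition to the 8. The level of signal limits CHGA, SCG2, SCG5, GCG and RFX6.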
